A study of Mus musculus with 8 samples.

Results

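The enzymes that process and crosslink collagen and elastin outside the cell were examined in cultured brain pericytes given TGF-β1. The 9 genes, all found by symbol among 54532 gene identifiers, were Lox, Loxl1, Loxl2, Loxl3 and Loxl4 (the lysyl oxidases), Bmp1 and Tll1 (procollagen C-proteinases), and Pcolce and Pcolce2 (procollagen C-proteinase enhancers). The rule names the genes and uses no measured value, although earlier results of these data were known when it was written. Bulk RNA sequencing was carried out on primary cultures from wild-type mouse brain, 4 with vehicle and 4 with TGF-β1 at 5 μg per mL, all for 48 h. The dose is given as the sources state it, and since TGF-β1 is usually added at nanograms per mL its unit is uncertain. TGF-β1 is a secreted cytokine that acts on pericytes, the contractile cells around capillaries, and the comparison asks which genes respond to it. Cells had been released with papain, grown in endothelial medium and moved to pericyte medium after the third passage, with no agent or allele other than the treatment separating the groups. The labels number the vehicle cultures 1 to 4 and the TGF-β1 cultures 5 to 8. The study's methods name adult male mice for the work as a whole, without tying an age or sex to the brain isolates. The study's methods describe independent isolates treated both ways, but no label ties a vehicle culture to a TGF-β1 culture. The model is limited to passaged cells in monoculture.

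Fibrillar collagens are secreted as procollagens, and BMP1 and its relative tolloid-like 1 (Tll1) cut off the C-terminal propeptide so that the chains can assemble into fibrils. The enhancers Pcolce and Pcolce2 bind the propeptide and speed that cut without being proteinases. Lysyl oxidases are copper-dependent enzymes that oxidize lysines of collagen and elastin to form the crosslinks that stiffen the matrix, and the LOX proenzyme is itself activated by BMP1. TGF-β is known for raising matrix production in mesenchymal cells, pericytes among them.

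The libraries held 45255235 to 47651397 counts, and the totals of the groups overlapped (exact two-sided permutation test, p = 0.857, where the smallest p is 0.0286). At this depth 3 counts equal 0.0631 to 0.0658 CPM, that is counts per 1000000 counts of the scaled library. The pericyte markers tested (Pdgfrb, Rgs5, Notch3, Cspg4, Des, Acta2, Anpep, Mcam and Cd248) all had counts in every culture. Acta2 was at 731 ± 30.1 CPM with vehicle and 715 ± 17.2 CPM with TGF-β1 (SD, n = 4). Des, which the study uses as a marker of pericyte function, held only 25 to 36 counts (0.685 and 0.623 CPM). Des, Notch3 and Acta2 did not pass the test. The brain pericyte markers Kcnj8, Abcc9 and Vtn were nearly absent, with at most 9 counts in any culture. The 12 pericyte markers summed to 1277 to 1342 CPM with vehicle and 1473 to 1492 CPM with TGF-β1, but moved both ways, with 4 higher and 2 lower of 9 tested. Over all genes tested, 20.9% were higher and 20.3% lower. Cspg4 (log2 fold change 1.03), Mcam (0.94), Pdgfrb (0.53) and Cd248 (0.20) rose, whereas Rgs5 fell from 8.62 to 2.13 CPM (-2.02) and Anpep changed by -0.43. The 8 fibroblast markers, which include the procollagen genes Col1a1 and Col1a2, summed to 3784 to 3949 CPM and 5332 to 5574 CPM respectively. Those procollagen genes were the 2 that rose of 7 tested, while Scara5 fell from 68.8 to 5.53 CPM, Dcn and Dpt also fell, and Pdgfra and Pi16 did not pass. Endothelial markers summed to 473 to 486 CPM and 475 to 501 CPM (2 higher and 1 lower of 6 tested). Most of this came from Cdh5 (375 ± 6.23 and 367 ± 12.9 CPM). Flt1 rose from 81.7 to 99.2 CPM (log2 fold change 0.28) and Vwf by 1.27, while Tek changed by -0.45. Cdh5, Kdr (17.9 and 18.6 CPM) and Pecam1 (1.11 CPM in both groups) did not pass. Astrocyte markers summed to 54.9 to 61.9 CPM and 40.7 to 45.7 CPM, with Slc1a2 (-1.24 on the log2 scale) and S100b (-1.55) lower and Slc1a3 (0.64) and Aldh1l1 (0.77) higher. The 10 macrophage and microglia markers summed to 8.14 to 8.97 CPM and 9.30 to 11.2 CPM (1 higher of 5 tested), and the 7 oligodendrocyte and neuron markers to 4.74 to 6.55 CPM and 5.34 to 5.98 CPM (1 lower of 5 tested). The part of these marker differences in the results below was not tested, and in bulk RNA fewer cells of a type and less RNA per cell cannot be told apart.

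Among the members, Loxl2 has a near copy that bears on its level. The unprocessed pseudogene Gm21451 (chr14:69390854-69480287, GRCm38, + strand) shares with the Loxl2 transcript of 5316 bases an identical run of 2348 bases, or 44.2% of it. The run covers 2139 of the 2328 coding bases (91.9%). The end of the run is printed here because it marks where the sequences part. Both stretches hold 120 transcript bases from GENCODE M21 on the + strand of GRCm38, with the shared bases in capitals and the bases after the run in lower case. The Loxl2 stretch lies at chr14:69690211-69692373 across an intron, in the coding sequence, and the Gm21451 stretch at chr14:69471936-69477455.
Loxl2: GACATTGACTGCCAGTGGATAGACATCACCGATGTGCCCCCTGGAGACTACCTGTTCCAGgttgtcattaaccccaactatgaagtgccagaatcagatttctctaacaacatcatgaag
Gm21451: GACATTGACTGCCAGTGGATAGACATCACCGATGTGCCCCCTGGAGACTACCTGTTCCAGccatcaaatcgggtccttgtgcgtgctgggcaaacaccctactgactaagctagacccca
Gm21451 itself held 3 to 10 counts per culture, and Loxl2 held 4968 to 8817. How the study's counting treated reads that match both genes is not given in the sources used here, so the level of Loxl2 is uncertain. Its level per length would be understated if reads from the shared run had been dropped, which was not tested. For Lox, Loxl1, Loxl4, Bmp1 and Pcolce2, none of the 50-base words of the transcripts occurred in another gene. For Loxl3, Pcolce and Tll1 the share of such words was 8.54%, 1.58% and 0.079%. No words were shared between members.

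Promoter windows of 250 bases before the RefSeq start (GRCm38.p6) were given for 4 of the 9 members, Loxl4, Tll1, Pcolce and Pcolce2. The windows were searched on both strands for CAGAC (a SMAD element), TGANTCA (AP-1), CATTCC (TEAD), ACGTG (hypoxia) and TATAAA. These motifs occur in 42.2%, 6.75%, 12.6%, 16.6% and 12.4% of the 32851 windows of this length. The windows of Loxl4, which was not called changed, and Pcolce2, which rose, are shown as a contrast, with the CAGAC match of Loxl4 in capitals. That of Loxl4 lies at chr19:42612807-42613056 on the - strand, and that of Pcolce2 at chr9:95637378-95637627 on the + strand.
Loxl4: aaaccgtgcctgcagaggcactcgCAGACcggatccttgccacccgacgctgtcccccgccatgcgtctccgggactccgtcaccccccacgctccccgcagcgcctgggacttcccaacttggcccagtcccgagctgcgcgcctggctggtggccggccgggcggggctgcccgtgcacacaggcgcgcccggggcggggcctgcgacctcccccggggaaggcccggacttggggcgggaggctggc
Pcolce2: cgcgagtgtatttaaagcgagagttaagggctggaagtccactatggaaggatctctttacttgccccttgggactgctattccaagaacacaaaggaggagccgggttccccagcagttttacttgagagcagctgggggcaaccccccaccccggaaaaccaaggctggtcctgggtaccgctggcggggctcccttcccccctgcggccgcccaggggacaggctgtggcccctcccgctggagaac
In Loxl4, CAGAC stood 226 to 222 bases before the start, and no searched motif was found in Pcolce2 or Pcolce. The Tll1 window had CAGAC on the opposite strand at 179 to 175 bases and CATTCC on the opposite strand at 238 to 233 bases before the start. Sequence content also differed, with 76.0% G and C in the Loxl4 window, 61.2% in Pcolce2, 58.8% in Pcolce and 43.2% in Tll1, against a median of 52.4% over all windows. The windows of Tll1 and Pcolce are not printed because 152 and 83 of their bases lie in annotated exons of these genes, compared with 7 for Loxl4 and 27 for Pcolce2.

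With TGF-β1, 7 of the 9 members rose, Pcolce fell and Loxl4 did not pass the test (edgeR's quasi-likelihood test, Benjamini-Hochberg adjusted p under 0.05 over 22544 genes). Over all genes tested, 41.3% were called, 20.9% higher and 20.3% lower. The median log2 fold change of the members was 0.73, compared with -0.01 over all genes tested. The 4 TGF-β1 cultures all lay above the 4 vehicle cultures for the 7 members that rose and below them for Pcolce, where 37.9% of all genes tested were separated in this way, 19.1% upward and 18.8% downward.

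**Figure D1:**
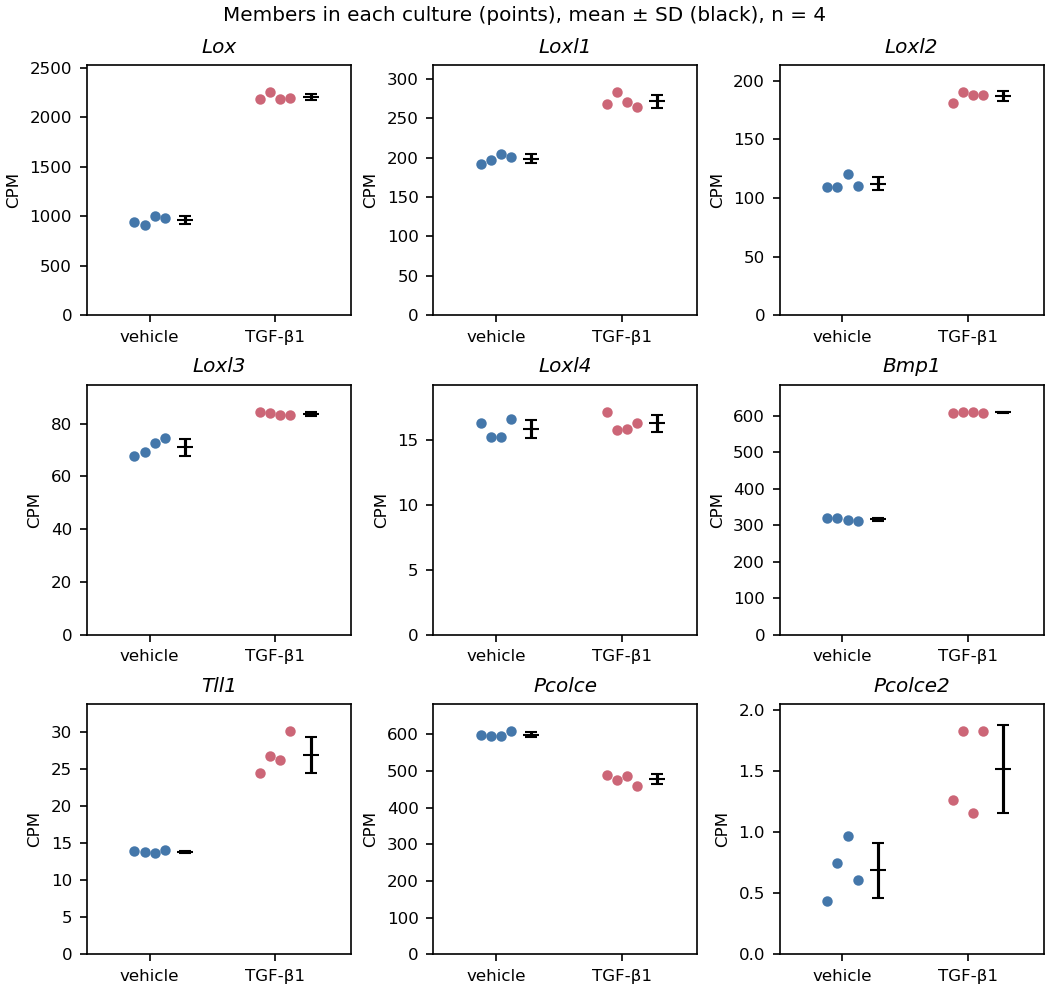
CPM of each member in each culture, with vehicle in blue and TGF-β1 in red (points) and the mean ± SD of 4 cultures beside them in black, each panel starting at 0. The groups are separated in every panel except Loxl4, and Pcolce is the member with the lower TGF-β1 values.

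Lox, the founding lysyl oxidase (ENSMUSG00000024529, chr18:52516067-52529867, GRCm38, - strand), was the most abundant member and rose most among the lysyl oxidases. It measured 944, 912, 1001 and 982 CPM in vehicle cultures 1 to 4 and 2189, 2255, 2187 and 2194 CPM in TGF-β1 cultures 5 to 8. Every treated culture was far above every vehicle culture. The means were 959.7 ± 39.5 CPM and 2206 ± 32.5 CPM (SD, n = 4), a 2.30-fold rise with a 95% interval of 2.22 to 2.38. On the log2 scale the change was 1.20 with an SE of 0.02 (edgeR quasi-likelihood test, Benjamini-Hochberg adjusted p = 7.89e-35). Only 3.51% of the genes tested had a larger absolute log2 fold change, and Lox ranked 13 by adjusted p.

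Loxl2, a lysyl oxidase with scavenger receptor domains (ENSMUSG00000034205, chr14:69609068-69695834, + strand), was the next of the family by size of change. Its values were 109.6, 109, 120.3 and 110.2 CPM with vehicle and 181, 190.4, 188 and 188 CPM with TGF-β1. The vehicle cultures were close to each other apart from culture 3, which was higher, and no treated culture came near them. Mean levels were 112 ± 5.37 CPM and 187 ± 4.19 CPM, and the log2 fold change was 0.73 with an SE of 0.03 (edgeR, Benjamini-Hochberg adjusted p = 6.75e-25), or 1.66-fold. Gm21451 was counted apart, at 3 to 10 counts, but the handling of reads that match both genes is not given. The change therefore holds for the counts assigned to Loxl2. The antisense gene Gm27177 (chr14:69582164-69683286, - strand) overlaps Loxl2 and had 0 counts in every culture.

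Loxl1, the family member tied to elastic fibres (ENSMUSG00000032334, chr9:58287738-58313186, - strand), rose less. It gave 192, 197, 204 and 201 CPM with vehicle and 268, 283, 270.1 and 265 CPM with TGF-β1. The lowest treated culture stood well above the highest vehicle culture. The means were 199 ± 5.48 CPM and 272 ± 8.13 CPM, 1.37-fold, with a log2 fold change of 0.45 and an SE of 0.03 (edgeR, Benjamini-Hochberg adjusted p = 2.09e-19).

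Loxl3, another member with scavenger receptor domains (ENSMUSG00000000693, chr6:83034173-83052562, + strand), had the smallest rise of those called. Values were 67.6, 69.3, 72.5 and 74.4 CPM with vehicle and 84.6, 84.0, 83.2 and 83.1 CPM with TGF-β1. The treated cultures were tightly grouped above a wider vehicle group. At 3812 to 3906 counts per treated culture so small a spread may be chance, and the difference in spread was not tested. From 71.0 ± 3.08 to 83.7 ± 0.696 CPM the change was 1.18-fold, or 0.24 with an SE of 0.03 on the log2 scale (edgeR, Benjamini-Hochberg adjusted p = 1.24e-08). Of the genes tested, 41.2% had a larger absolute log2 fold change. Loxl3 exons overlap those of Htra2, a mitochondrial protease gene on the opposite strand (chr6:83051266-83055273), over 11.6% of their bases. Htra2 went from 20.3 ± 1.48 to 29.2 ± 1.80 CPM, a log2 fold change of 0.53 with an SE of 0.05 (edgeR, Benjamini-Hochberg adjusted p = 1.24e-11). The strand setting of the counting is not given in the sources used here, so reads from this overlap could fall to either gene.

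Loxl4 (ENSMUSG00000025185, chr19:42593982-42612813, - strand), a further scavenger receptor member, did not differ beyond its spread. It gave 16.3, 15.3, 15.3 and 16.6 CPM with vehicle and 17.2, 15.8, 15.9 and 16.3 CPM with TGF-β1. The groups overlapped, with means of 15.9 ± 0.708 and 16.3 ± 0.652 CPM. Its log2 fold change was 0.04 with an SE of 0.06 and a 95% interval of -0.07 to 0.15 (edgeR, Benjamini-Hochberg adjusted p = 0.629), and the estimates of the other lysyl oxidases all lay above that interval. The gene held 696 to 789 counts per culture.

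Bmp1, the main procollagen C-proteinase (ENSMUSG00000022098, chr14:70474558-70520234, - strand), rose to nearly the same value in each treated culture. The vehicle cultures gave 319.5, 319.4, 314 and 313 CPM, and the TGF-β1 cultures 608, 612, 611 and 609 CPM. Its coefficient of variation was the lowest of the members in both groups, at 1.06% with vehicle and 0.312% with TGF-β1. At 27873 to 28630 counts per treated culture so small a spread may be chance, and it was not tested. Means were 317 ± 3.36 CPM and 610.3 ± 1.90 CPM, 1.93-fold with a 95% interval of 1.87 to 1.99. The log2 fold change was 0.95 with an SE of 0.02 (edgeR, Benjamini-Hochberg adjusted p = 2.45e-33), and Bmp1 ranked 17 by adjusted p among all genes tested.

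Tll1, the second C-proteinase (ENSMUSG00000053626, chr8:64014931-64206271, - strand), rose by a like factor from a far lower level. Its CPM were 13.9, 13.8, 13.7 and 14.0 with vehicle and 24.5, 26.9, 26.2 and 30.2 with TGF-β1. The vehicle cultures were almost equal while the treated cultures spread more widely, with coefficients of variation of 1.09% and 8.79%. At 631 to 650 counts per vehicle culture so small a spread may be chance, and the difference in spread was not tested. The means of 13.9 ± 0.152 and 27.0 ± 2.37 CPM gave 1.94-fold, or 0.96 with an SE of 0.06 on the log2 scale (edgeR, Benjamini-Hochberg adjusted p = 5.64e-19). Per kilobase of exon, Tll1 stood at 0.0495 to 0.0513 of Bmp1 with vehicle and 0.0461 to 0.0567 with TGF-β1, and these ranges overlapped.

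Pcolce, the main enhancer (ENSMUSG00000029718, chr5:137605103-137613784, - strand), went the opposite way from the proteinases. It measured 597, 594, 595 and 609 CPM with vehicle and 489.6, 476, 487 and 458 CPM with TGF-β1. All treated cultures lay below all vehicle cultures. The mean fell from 599 ± 6.72 to 478 ± 14.3 CPM, to 0.798 of the vehicle level with a 95% interval of 0.773 to 0.824. The log2 fold change was -0.33 with an SE of 0.02 (edgeR, Benjamini-Hochberg adjusted p = 2.83e-16). Of the exon bases of Pcolce, 2.9% lie in exons of another gene on the same strand. How reads from those bases were counted is not given in the sources used here.

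Pcolce2 (ENSMUSG00000015354, chr9:95637601-95698096, + strand), the second enhancer, rose from near the limit of what was measured. The counts were 20, 34, 46 and 28 with vehicle and 58, 84, 53 and 86 with TGF-β1. The highest vehicle culture and the lowest treated culture were close, at 0.968 and 1.16 CPM. Means of 0.689 ± 0.226 and 1.52 ± 0.360 CPM gave a 2.20-fold rise with a wide 95% interval of 1.61 to 3.01. The log2 fold change was 1.14 with an SE of 0.22 (edgeR, Benjamini-Hochberg adjusted p = 4.51e-05). Pcolce2 had the largest coefficients of variation of the members, 32.8% with vehicle and 23.7% with TGF-β1.

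**Figure D2:**
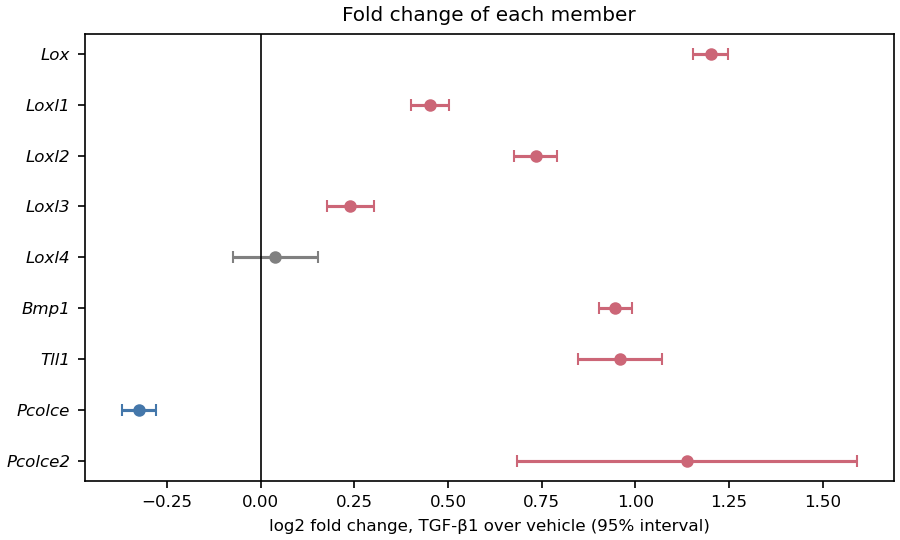
The log2 fold change of each member (x axis, TGF-β1 over vehicle), with points at the estimate and bars for the 95% interval, in red for called higher, blue for called lower and grey for not called. Lox, Bmp1 and Tll1 have intervals near 1, Pcolce2 has the widest interval, Loxl4 spans 0 and Pcolce lies at -0.33.

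To compare levels between genes, CPM was divided by exon length in kilobases. That length is the union of all annotated exons and may exceed the transcript expressed, so levels and ratios between genes are approximate. On this scale Lox led in both groups, at 200.9 ± 8.27 with vehicle and 462 ± 6.81 CPM per kb with TGF-β1. Pcolce followed at 156.6 ± 1.76 and 125.0 ± 3.73 CPM per kb. Next were Loxl1 (60.3 and 82.4), Bmp1 (35.7 and 68.8), Loxl2 (20.8 and 34.5), Loxl3 (15.4 and 18.2), Loxl4 (3.77 and 3.87), Tll1 (1.79 and 3.47) and Pcolce2 (0.149 and 0.329 CPM per kb). In this order no neighbours overlapped between cultures except Loxl4 and Tll1 in the TGF-β1 group. If no read from the shared run had been given to Loxl2, its remaining 3057 exon bases would put it at 36.7 ± 1.76 and 61.1 ± 1.37 CPM per kb, beside Bmp1. That calculation was added after the data had been seen. Among 14971 protein-coding genes tested, Lox moved from rank 70 to rank 14 by level per length, Bmp1 from 1236 to 459 and Pcolce from 109 to 168.

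The mix of lysyl oxidases shifted toward Lox. Their summed level per length was 289.5 to 313 CPM per kb with vehicle and 595 to 615 CPM per kb with TGF-β1. Lox made up 65.9% to 67.1% of that sum with vehicle and 76.7% to 77.0% with TGF-β1. Loxl1, at 19.7% to 20.6% with vehicle, went to 13.5% to 14.0% although its own level rose. Shares of Loxl2 went from 6.64% to 7.11% to between 5.61% and 5.84%, and those of Loxl3 from 4.99% to 5.27% to between 2.97% and 3.09%. Loxl4 held 1.16% to 1.31% with vehicle and 0.609% to 0.686% with TGF-β1. None of these ranges overlapped between the groups. With Loxl2 set on its exon bases outside the shared run, Lox held 62.6% to 63.7% and 73.5% to 73.8%.

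The balance of enhancer to proteinase also changed. Per length, Pcolce stood at 4.32 to 4.51 times Bmp1 with vehicle and at 1.75 to 1.87 times with TGF-β1, without overlap. Bmp1 per Lox was 0.169 to 0.189 with vehicle and 0.146 to 0.151 with TGF-β1. Against the main fibrillar procollagen, the level of Lox per 1000 of Col1a1 was 784 to 861 with vehicle and 1164 to 1229 with TGF-β1. Bmp1 per 1000 of Col1a1 was 143 to 154 and 175 to 183 respectively. Both ratios were higher in every treated culture, although Col1a1 itself rose.

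**Figure D3:**
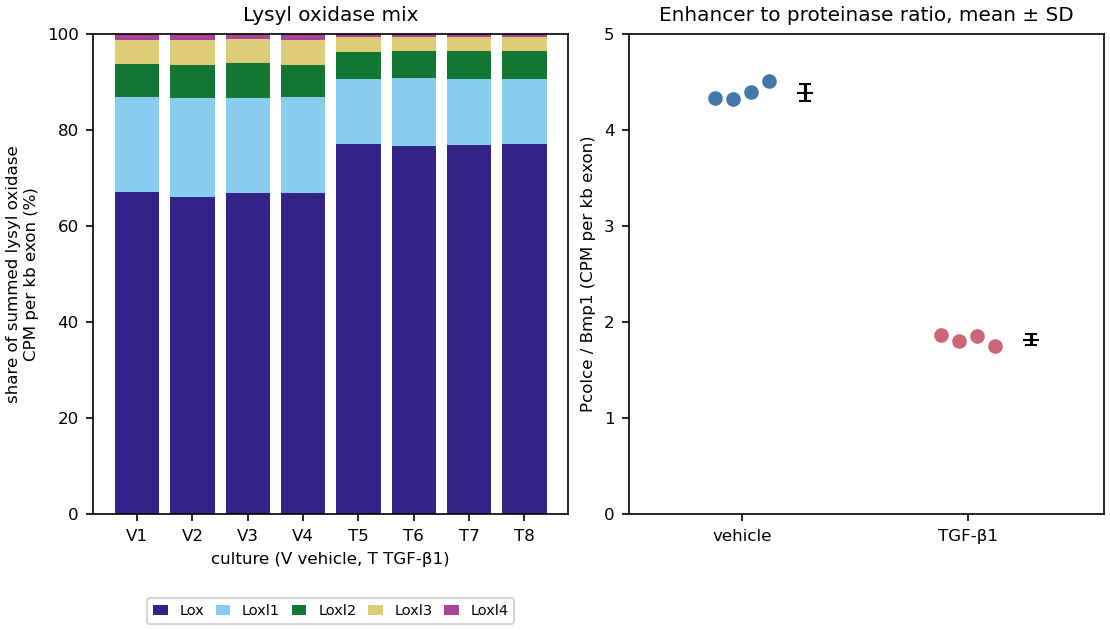
Left, the share of each lysyl oxidase in their summed CPM per kb of exon (y axis, percent) for vehicle cultures V1 to V4 and TGF-β1 cultures T5 to T8, with Lox at 65.9% to 67.1% and then 76.7% to 77.0%. Right, the ratio of Pcolce to Bmp1 in CPM per kb for each culture (points) with mean ± SD of 4 cultures, which is lower in all TGF-β1 cultures.

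Of the substrates, the fibrillar procollagen chains rose for 8 of 11 genes tested, fell for 1 and did not pass for 2, with a median log2 fold change of 0.48. Beside this and the list counts below stand the shares over all genes tested, 20.9% called higher and 20.3% called lower. Col5a3 and Col11a1, minor chains that regulate fibril assembly, changed by 2.57 (SE 0.12) and 1.50 (SE 0.05), and Col5a2 by 1.40 (SE 0.03). Col1a1, the major chain of collagen I, went from 1588 ± 36.8 to 2525 ± 49.5 CPM, a log2 fold change of 0.67 (SE 0.02). Its partner Col1a2 changed by 0.43 (SE 0.02) and Col3a1 by 0.64 (SE 0.02), while Col11a2 fell by 0.26 (SE 0.07). The adjusted p of the chains named here lay at or below 0.00324 (edgeR, Benjamini-Hochberg).

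The N-propeptide is removed by other enzymes, of which Adamts2 and Adamts14 fell while Bmp1 rose. The list of other procollagen proteinases holds N-proteinases together with meprins and the tolloid gene Tll2, so its median does not describe N-proteinases alone. Of its 6 genes 4 were tested, of which 1 rose, 2 fell and 1 did not pass, with a median log2 fold change of -0.38. Adamts2, the main procollagen N-proteinase, fell from 149 ± 3.78 to 103 ± 4.63 CPM, a log2 fold change of -0.53 with an SE of 0.03 (edgeR, Benjamini-Hochberg adjusted p = 8.09e-20). Adamts14, a related N-proteinase, fell from 46.1 ± 0.727 to 32.7 ± 2.17 CPM, by 0.50 on the log2 scale (SE 0.04). The gene that rose was Mep1a, a meprin, which held only 6 to 32 counts, and its call was lost without TGF-β1 culture 5, where the count of risen genes was 0. Tll2, the remaining tolloid gene, was at 8 to 26 counts and did not pass.

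Other substrates of BMP1 rose for 7 of the 9 tested of 11, with 1 lower, 1 not passing and a median log2 fold change of 0.29. The treated cultures all lay above the vehicle cultures for 5 of the 7. Chrd, Hspg2 and Gdf11 rose by only 0.16, 0.12 and 0.09, under the median absolute log2 fold change of 0.185 over all genes tested. Biglycan (Bgn), a small proteoglycan with a propeptide removed by BMP1, went from 1059 ± 12.3 to 2207 ± 13.9 CPM, a log2 fold change of 1.06 (SE 0.02). Col7a1, the anchoring fibril collagen, changed by 2.78 (SE 0.12) and Ltbp1, which holds latent TGF-β in the matrix, by 0.76 (SE 0.03). Osteoglycin (Ogn), also a small proteoglycan, fell from 173 ± 2.29 to 49.6 ± 3.37 CPM, by 1.80 on the log2 scale (SE 0.03). Members of this list therefore moved both ways.

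Elastic fibre genes, whose product elastin is crosslinked by lysyl oxidases, rose for 7 of 12, fell for 3 and did not pass for 2, with a median log2 fold change of 0.32. Fbn1, the main fibrillin, went from 171 ± 6.82 to 602 ± 19.8 CPM (log2 fold change 1.81, SE 0.03) and Fbln2 from 409 ± 12.9 to 1371 ± 13.7 CPM (1.74, SE 0.02). Fbln5, which links elastin to Loxl1, changed by 0.43 (SE 0.03). Elastin itself (Eln) was scarce, with 32 to 114 counts, and rose by 1.43 (SE 0.18), and Mfap5, at 9 to 73 counts, by 2.16 (SE 0.24). In contrast, Fbln1 fell from 446 ± 7.58 to 196 ± 12.2 CPM, by 1.19 on the log2 scale (SE 0.03), and Fbn2 and Mfap2 fell by 0.20 and 0.21. The call of Mfap2 was lost in 6 of 8 fits with a culture left out and with DESeq2, and that of Fbn2 in 2 of 8, without TGF-β1 culture 8 and without vehicle culture 3.

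Matrix proteins that bind BMP1 or lysyl oxidases rose for 3 of the 5 tested of 6, with 1 lower and a median log2 fold change of 0.49. The genes that rose were Thbs1 (thrombospondin 1) by 1.13 (SE 0.03), Postn (periostin) by 0.99 (SE 0.05) and Fn1 (fibronectin) by 0.49 (SE 0.02), whereas Fmod (fibromodulin), with 89 to 161 counts, fell by 0.53 (SE 0.14). Sfrp2 did not pass and Lum was too low to test.

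Lysyl hydroxylation prepares the lysines for crosslinking. Here 6 of 7 genes rose and P3h4 did not pass, with a median log2 fold change of 0.28. Plod2, the telopeptide lysyl hydroxylase, went from 84.9 ± 2.41 to 181 ± 3.91 CPM, a log2 fold change of 1.09 (SE 0.03). Plod1 changed by 0.45 (SE 0.03), the collagen chaperone Serpinh1 by 0.38 (SE 0.02), Fkbp10 by 0.28 (SE 0.03) and Plod3 by 0.22 (SE 0.03). Genes of copper supply, the cofactor of lysyl oxidases, moved both ways, with 3 of 5 higher, 1 lower and a median of 0.15. Atp7a, the pump that loads copper into secreted enzymes, changed by 0.36 (SE 0.03) and Slc31a1, the copper importer, by 0.15 (SE 0.03), while Slc31a2 fell by 0.46 (SE 0.03) and the chaperone Atox1 did not pass. Atp7b, a related pump with 8 to 40 counts, was called at 0.72 (SE 0.30), and 11 of 15 alternatives did not call it. Of 8 genes listed as TGF-β responses, 7 rose and Tgfbi fell, with a median of 1.01.

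**Figure D4:**
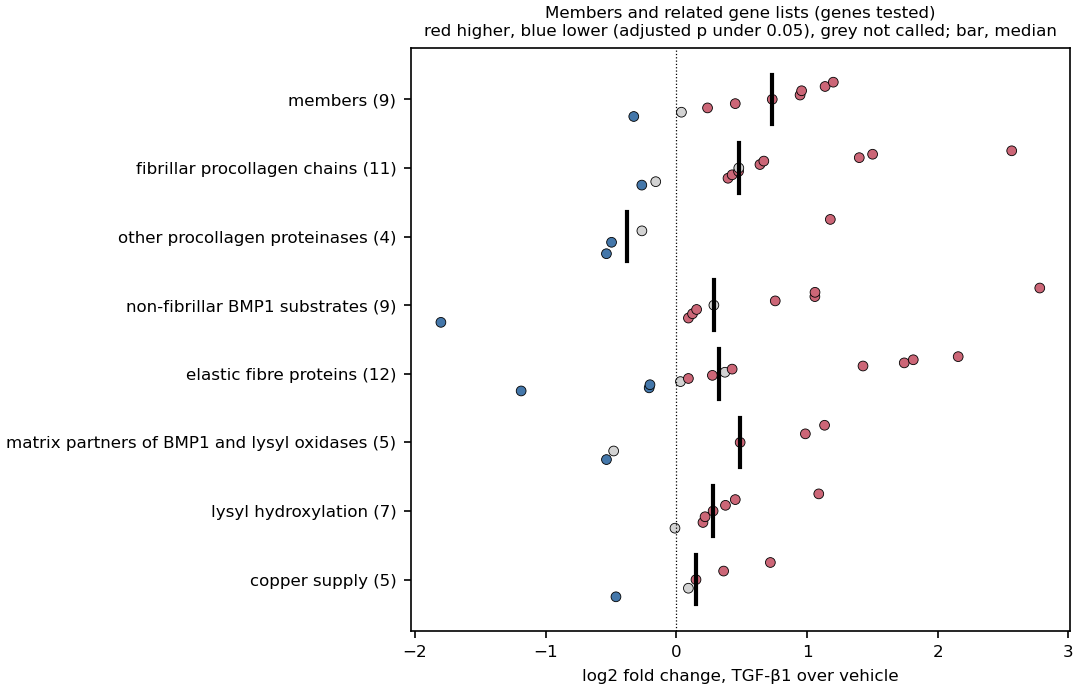
Log2 fold change (x axis) of every gene tested in the members and in 7 related lists (rows, number tested in brackets), red for called higher, blue for called lower, grey for not called, with a bar at each list's median. The members' median is 0.73, and the other procollagen proteinases are the list with a median below 0, at -0.38.

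The genes whose log2 CPM most resembled Lox over the 8 cultures were Timp1 (r = 0.999), Thbs2 and Serinc5, and 1648 genes had a Pearson r above 0.95. For Tll1 they were Fosl1 (r = 0.999), Mmd and Smarcc1, with 1458 genes above 0.95. For Pcolce2 they were Ankrd37 (r = 0.985), Ppat and Akirin1, with 67 genes above that value. These correlations describe 2 groups that stand apart in level, and they share libraries.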

How the data were processed

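RNA from 8 primary pericyte cultures, extracted with a Maxwell kit, was made into stranded total RNA libraries. Per the labels and the study's methods, the authors aligned reads to mm10 with STAR 2.7.5c, removed PCR duplicates with SAMtools 1.15 and deposited raw counts per gene from featureCounts 2.0.3, 1 library per culture. The annotation release, strand setting and treatment of reads shared between genes are not given in the sources used here. Symbols were found for 54409 of 54532 identifiers, and positions for 54495 in GENCODE M21 (GRCm38).

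The counts were tested with edgeR 4.0.16 in R 4.3.3 (filterByExpr, TMM factors, robust quasi-likelihood fit, Benjamini-Hochberg over the 22544 genes tested, threshold 0.05). CPM used TMM-scaled totals of the genes tested, with factors of 0.988 to 1.01. The SE was the absolute log2 fold change divided by the square root of F. CPM per kb used union exon length. Likeness was Pearson r of log2 CPM with a prior count of 2. The code was tested on simulated data. Alternatives were DESeq2 1.42.0, 3 other scalings, 2 count filters, halved counts and each culture left out. Between 68.5% and 70.2% of counts from 1 to 20 were even, so both mates of a pair may have been counted, and intervals cover the spread between cultures only. The p-values compare the difference with the spread between cultures, using spread estimates that borrow from all genes tested. Pairing by isolate is not labelled. With counts halved, pairs of cultures within a group differed with a chi-square per degree of freedom of 1.14 to 2.11. Whether the cultures spread as independent isolates would was not tested. All 9 members are named. Other genes named come from the lists of related genes, or are the 3 most alike to each of the 3 called members with the largest absolute log2 fold change. Gm21451, Gm27177 and Htra2 were chosen after their values were seen. The members and lists were chosen with earlier results of these data known. Some genes counted in the lists are not reported here by name.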

Additional observations from a re-analysis of the deposited data

Results flagged for a closer look

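Of 46 sets of 4 cultures examined for a culture far from the others, 7 were flagged, where chance would flag 2.3 (1 in 20). The sets are not independent, since shares, sums and ratios reuse the same values. Lox in TGF-β1 culture 6 was at 2255 CPM with the nearest culture at 2194 CPM, and the summed lysyl oxidase level was 615 CPM per kb there against 596. Loxl2 in vehicle culture 3 was at 120.3 CPM with the nearest at 110.2 CPM. Pcolce in vehicle culture 4 was at 609 CPM with the nearest at 597 CPM. In vehicle culture 2, Lox made up 65.9% of the lysyl oxidase sum (nearest 66.9%) and Loxl1 20.6% (nearest 19.9%), with a Loxl1 to Lox ratio of 0.313 (nearest 0.297). The vehicle and TGF-β1 cultures did not overlap in any of the 7 quantities.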

How the results depend on the processing

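The 7 members called higher and Pcolce called lower kept their calls and directions under all 15 alternatives, and Loxl4 passed in none (adjusted p 0.476 to 0.928). Over these alternatives the log2 fold change ranged from 1.18 to 1.23 for Lox, 0.94 to 0.96 for Bmp1, 0.91 to 1.00 for Tll1, 0.22 to 0.26 for Loxl3, -0.34 to -0.30 for Pcolce and 0.98 to 1.36 for Pcolce2. All genes called numbered 8655 to 9311 over the settings and 8559 to 9038 with a culture left out. The count of other procollagen proteinases called higher, 1 (Mep1a), was 0 with at least 10 counts in every culture and 0 with counts halved, and 0 to 1 with a culture left out. Of the other related genes called, Atp7b was not called in 11 of the 15 alternatives, Mfap2 in 7, Chrd in 3, Fbn2 in 2, and Hspg2 and Mfap5 in 1 each, with genes that a filter removed counted as not called. The level of Loxl2 per kb went from 20.8 to 36.7 with vehicle and from 34.5 to 61.1 with TGF-β1 when exon bases outside the shared run were used, since the length is shorter by construction. No paired analysis was possible because the labels number the vehicle cultures 1 to 4 and the TGF-β1 cultures 5 to 8, with no number shared between the groups. Depth limits Pcolce2, at 20 to 86 counts, and the lowest list genes.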
